A study of Mus musculus with 27 samples.

Results

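The small leucine-rich proteoglycans are secreted matrix proteins that share a core of leucine-rich repeats, and 10 of their genes were followed here across 27 mouse fibroblast cultures: Dcn (decorin), Bgn (biglycan) and Aspn (asporin) of class I, Fmod (fibromodulin), Lum (lumican), Prelp, Kera (keratocan) and Omd (osteomodulin) of class II, and Epyc (epiphycan) and Ogn (osteoglycin) of class III. A gene was a member where a probe set of the array carried its symbol alone, and where a gene had more than 1 such probe set the brightest was taken. Each of the 10 genes had 1 probe set, out of 19938 genes measured. RNA was taken at Day 3 from fibroblasts of adult mouse hearts (CFs) and of mouse embryos (MEFs), and the RNA of each culture was hybridized to 1 array of the Affymetrix Mouse Gene 1.0 ST type. The cultures carried lentiviruses for Hand2, Nkx2.5, Gata4, Mef2C and Tbx5 (HNGMT, 5F in the labels) or an empty vector (0TF, 0F in the labels), and all received doxycycline at 2 µg/mL, which switches the delivered genes on. They were treated with TGFβ1 at 2 ng/mL, with SB431542 (SB, an inhibitor of the type I receptors for TGFβ, Activin and Nodal) at 5 µM in CFs and 0.5 µM in MEFs, or with the vehicle DMSO. HNGMT CFs, HNGMT MEFs and 0TF MEFs were each measured under TGFβ1, SB and DMSO with 3 cultures per group. No CFs with the empty vector were among the 27 cultures. The cultures of a group are described as independent biological replicates, and the protocol text attached to the CF samples describes MEFs.

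Small leucine-rich proteoglycans coat collagen fibrils and set how thick the fibrils grow and how they are spaced. Several of them, decorin, biglycan, fibromodulin and asporin among them, bind TGFβ itself and can hold it in the matrix or keep it from its receptors. Fibroblasts are their main source in most connective tissues, with keratocan best known from the cornea, epiphycan from cartilage and osteomodulin from bone.

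The median log2 intensity of an array was 7.36 to 7.43 for CFs, below the 7.83 to 7.91 of the MEF arrays, so levels were set against each other within a cell type, and between cell types only by rank within the array. Of the delivered factors, the Hand2 probe set gave 11.57 to 11.77 in HNGMT MEFs and 8.77 to 9.30 in 0TF MEFs. The mouse probe sets of Nkx2-5, Gata4, Mef2c and Tbx5 were not higher past the thresholds in HNGMT than in 0TF MEFs, and Tbx5 was lower in HNGMT MEFs under SB (-1.01) and DMSO (-0.94). The study's own PCR assays for these 4 factors were for the human genes. The TGFβ1 target Ccn2 rose by 1.05 (log2) with TGFβ1 in 0TF MEFs and fell by 1.84 with SB. Other target genes checked there did not all move alike with TGFβ1. Skil (0.70) and Pmepa1 (0.66) rose, Smad7 (0.53) and Ltbp2 (0.26) were higher by less than 1.5-fold, and Tgfbi fell by 1.48. In HNGMT MEFs Ccn2 differed by -0.03 between TGFβ1 and DMSO (adjusted p = 0.689) and fell by 1.24 with SB. None of the other target genes was called with TGFβ1 there. Their changes were 0.49 for Smad7, 0.24 for Skil, 0.19 for Tgfbi, 0.12 for Ltbp2 and 0.05 for Pmepa1. In HNGMT CFs TGFβ1 raised Ltbp2 (1.86), Pmepa1 (1.64), Tgfbi (1.29), Skil (0.54) and Ccn2 (0.38) past the thresholds, and Smad7 differed by 0.19. The CF cultures also held RNA of endothelial genes: Pecam1 lay between the 94.9th and the 96.0th percentile of the array in DMSO-treated CFs and between the 28.5th and the 31.8th in DMSO-treated MEFs. Replicate 3 of SB-treated CFs stood apart from the other two, with a mean over 10 endothelial markers of 9.38 against 10.74 and 10.75, and a mean over 10 fibroblast markers of 10.99 against 10.34 and 10.31. Results that rest on that culture are given with and without it. In bulk RNA, fewer cells that express a gene and less of its RNA per cell cannot be told apart.

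Most members lie in gene clusters. Dcn, Lum, Kera and Epyc follow each other on chromosome 10, Aspn, Omd and Ogn follow their relative Ecm2 on chromosome 13, and Prelp and Fmod are neighbours on chromosome 1, in each case with 0 protein-coding genes between them in RefSeq. Bgn lies on the X chromosome. Promoter windows (250 bases before to 50 bases after a transcript start, RefSeq, GRCm38.p6) were found for 8 of the 10 members. They were searched on both strands for CAGAC, the core of the Smad-binding element that the TGFβ-activated Smad proteins recognise, and for TGANTCA (AP-1), GATAA (GATA factors), CANNTG (E-box) and the core promoter motif TATAAA. The motif CAGAC or its complement GTCTG occurred in 2 of the 8 members, Fmod and Prelp, and in 49.6% of the 32851 windows of the table. TGANTCA was in 0 members (7.8% of all windows), GATAA in 2 (25.4%), CANNTG in 6 (72.3%) and TATAAA in 2 (13.6%), and no CAGAC match overlapped another motif. Printed below are the windows of the 3 members with the largest TGFβ1 responses in 0TF MEFs among those with a window and of Bgn, which was called in none of the comparisons. They lie at chr1:134037004-134037303 (Fmod, plus strand), chr1:133921352-133921651 (Prelp, minus strand), chr10:97643818-97644117 (Epyc, plus strand, the first of its 2 windows) and chrX:73483351-73483650 (Bgn, plus strand). Capitals mark CAGAC or GTCTG, and a match is a description of the letters, not of a bound site.
Fmod: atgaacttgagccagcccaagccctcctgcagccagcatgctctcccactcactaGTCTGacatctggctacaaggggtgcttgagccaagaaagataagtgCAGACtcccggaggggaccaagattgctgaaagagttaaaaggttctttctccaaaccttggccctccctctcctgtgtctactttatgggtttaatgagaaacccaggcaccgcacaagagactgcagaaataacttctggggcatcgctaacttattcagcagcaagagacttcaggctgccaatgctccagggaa
Prelp: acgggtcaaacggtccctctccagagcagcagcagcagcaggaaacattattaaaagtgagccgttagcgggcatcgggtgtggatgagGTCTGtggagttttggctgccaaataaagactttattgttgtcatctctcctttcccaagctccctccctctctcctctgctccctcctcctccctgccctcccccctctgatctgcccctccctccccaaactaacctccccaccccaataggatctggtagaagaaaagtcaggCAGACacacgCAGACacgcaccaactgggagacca
Epyc: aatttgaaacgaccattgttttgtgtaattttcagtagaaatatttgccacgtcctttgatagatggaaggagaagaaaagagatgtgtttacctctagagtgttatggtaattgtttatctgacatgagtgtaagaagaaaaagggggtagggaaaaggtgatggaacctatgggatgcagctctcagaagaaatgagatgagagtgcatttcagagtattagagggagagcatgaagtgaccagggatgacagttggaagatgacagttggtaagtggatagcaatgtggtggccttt
Bgn: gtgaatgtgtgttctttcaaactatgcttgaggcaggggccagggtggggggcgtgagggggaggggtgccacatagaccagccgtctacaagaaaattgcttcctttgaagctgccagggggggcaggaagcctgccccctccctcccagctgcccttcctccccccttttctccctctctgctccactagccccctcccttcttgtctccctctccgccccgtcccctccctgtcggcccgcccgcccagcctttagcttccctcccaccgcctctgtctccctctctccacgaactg

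In Fmod the matches start 195 and 148 bases before the transcript start. In Prelp 1 starts 161 bases before it and the others at positions 16 and 26, counted from 1 at the start. The Epyc and Bgn windows hold no match, and they differ in base composition, with 40.3% G and C in Epyc and 63.7% in Bgn. The Fmod and Prelp windows had 51.0% and 55.3%.

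The family covered nearly the whole range of the arrays. Under DMSO, Dcn and Bgn were among the brightest genes of every culture, at or above the 99.3rd percentile in HNGMT CFs, in HNGMT MEFs and in 0TF MEFs. Their MEF values, up to 14.09 for Dcn and 14.01 for Bgn, came close to the highest value of the MEF arrays (14.52 to 14.64), a level where a change can go unseen. Lum, Aspn and Ogn also ranked high in MEFs, but less so in CFs: Aspn lay at the 47.3rd to 55.3rd percentile in HNGMT CFs and at the 98.0th to 98.2nd in HNGMT MEFs, Lum at the 51.2nd to 55.7th against the 97.7th to 98.0th, and Ogn at the 69.5th to 73.6th against the 98.0th to 98.4th. Fmod was lower in rank in CFs as well, at the 67.2nd to 69.5th percentile against the 89.2nd to 89.8th in HNGMT MEFs. Prelp, found at basement membranes, was higher in rank in CFs, at the 97.0th to 97.4th percentile against the 90.6th to 91.0th in HNGMT MEFs. Epyc, Kera and Omd lay at the dim end of the CF arrays, between the 11.3rd and the 16.5th percentile, whereas Epyc reached the 80.7th to 83.8th percentile in HNGMT MEFs. None of these differences in rank was tested, since the arrays of each cell type have their own median.

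**Figure D1:**
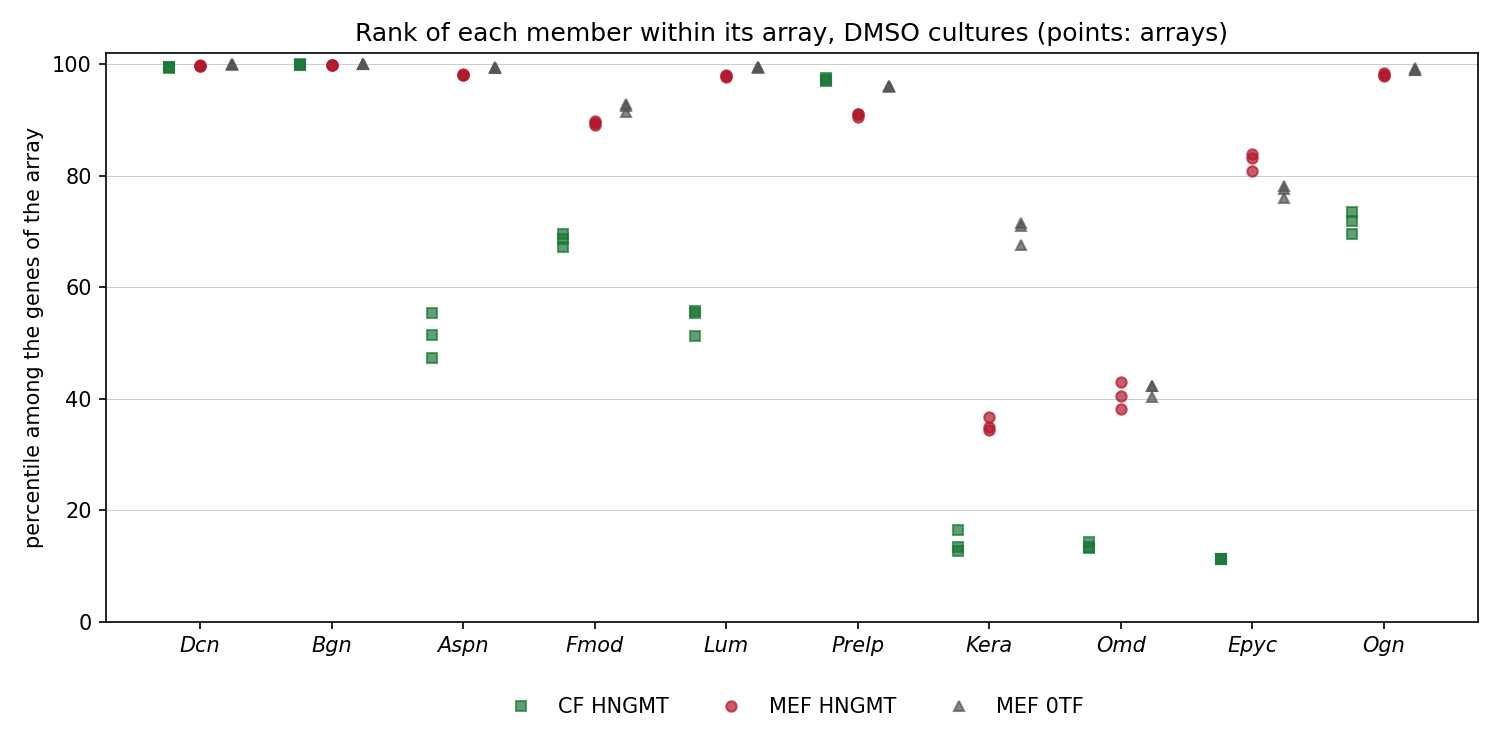
Percentile of each member among all genes of its array (vertical axis, percent) in DMSO-treated HNGMT CFs, HNGMT MEFs and 0TF MEFs, each point 1 array. Dcn and Bgn sit at the top in every culture, Aspn, Lum, Ogn and Fmod are lower in rank in CFs, and Epyc lies at the 11.3rd percentile in CFs.

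Adding TGFβ1 lowered most of the family in MEFs. In HNGMT MEFs 7 of the 10 members fell and 0 rose, and in 0TF MEFs 8 fell and 0 rose, at an adjusted p under 0.05 and a fold of at least 1.5. Over all genes 3.54% were called lower and 2.23% higher in HNGMT MEFs, and 6.19% lower and 4.21% higher in 0TF MEFs. The median log2 change of the members was -1.24 in HNGMT MEFs and -1.79 in 0TF MEFs, against 0.02 and 0.05 over all genes. The largest falls in HNGMT MEFs were in Epyc, Lum, Dcn, Omd and Fmod, and in 0TF MEFs in Epyc, Prelp, Fmod, Kera and Lum. Markers of other cell types moved as well. In HNGMT MEFs the mean over 7 smooth muscle and pericyte markers (2 called higher) was 10.85 to 10.92 with TGFβ1 and 10.50 to 10.60 with DMSO, that over 7 adipocyte markers (3 lower) 7.72 to 7.83 and 8.13 to 8.20, and that over 8 cardiomyocyte markers (1 higher, 4 lower) 9.63 to 9.68 and 9.91 to 10.01. In 0TF MEFs the smooth muscle and pericyte mean (5 higher, 1 lower) was 10.16 to 10.32 with TGFβ1 and 9.34 to 9.41 with DMSO, the adipocyte mean (2 lower) 7.68 to 7.76 and 8.35 to 8.36, and the mean over 6 skeletal muscle markers (1 higher) 8.09 to 8.19 and 7.72 to 7.77. The fibroblast mean was 11.29 to 11.32 with TGFβ1 and 11.42 to 11.44 with DMSO in HNGMT MEFs, and 12.04 to 12.08 with TGFβ1 and 11.96 to 12.01 with DMSO in 0TF MEFs. The mean over 8 cartilage, bone and tendon markers was 8.40 to 8.42 with TGFβ1 and 8.46 to 8.52 with DMSO in HNGMT MEFs. In 0TF MEFs it was 8.27 to 8.28 with TGFβ1 and 8.58 to 8.68 with DMSO. The part of these markers in the members' values was not tested.

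**Figure D2:**
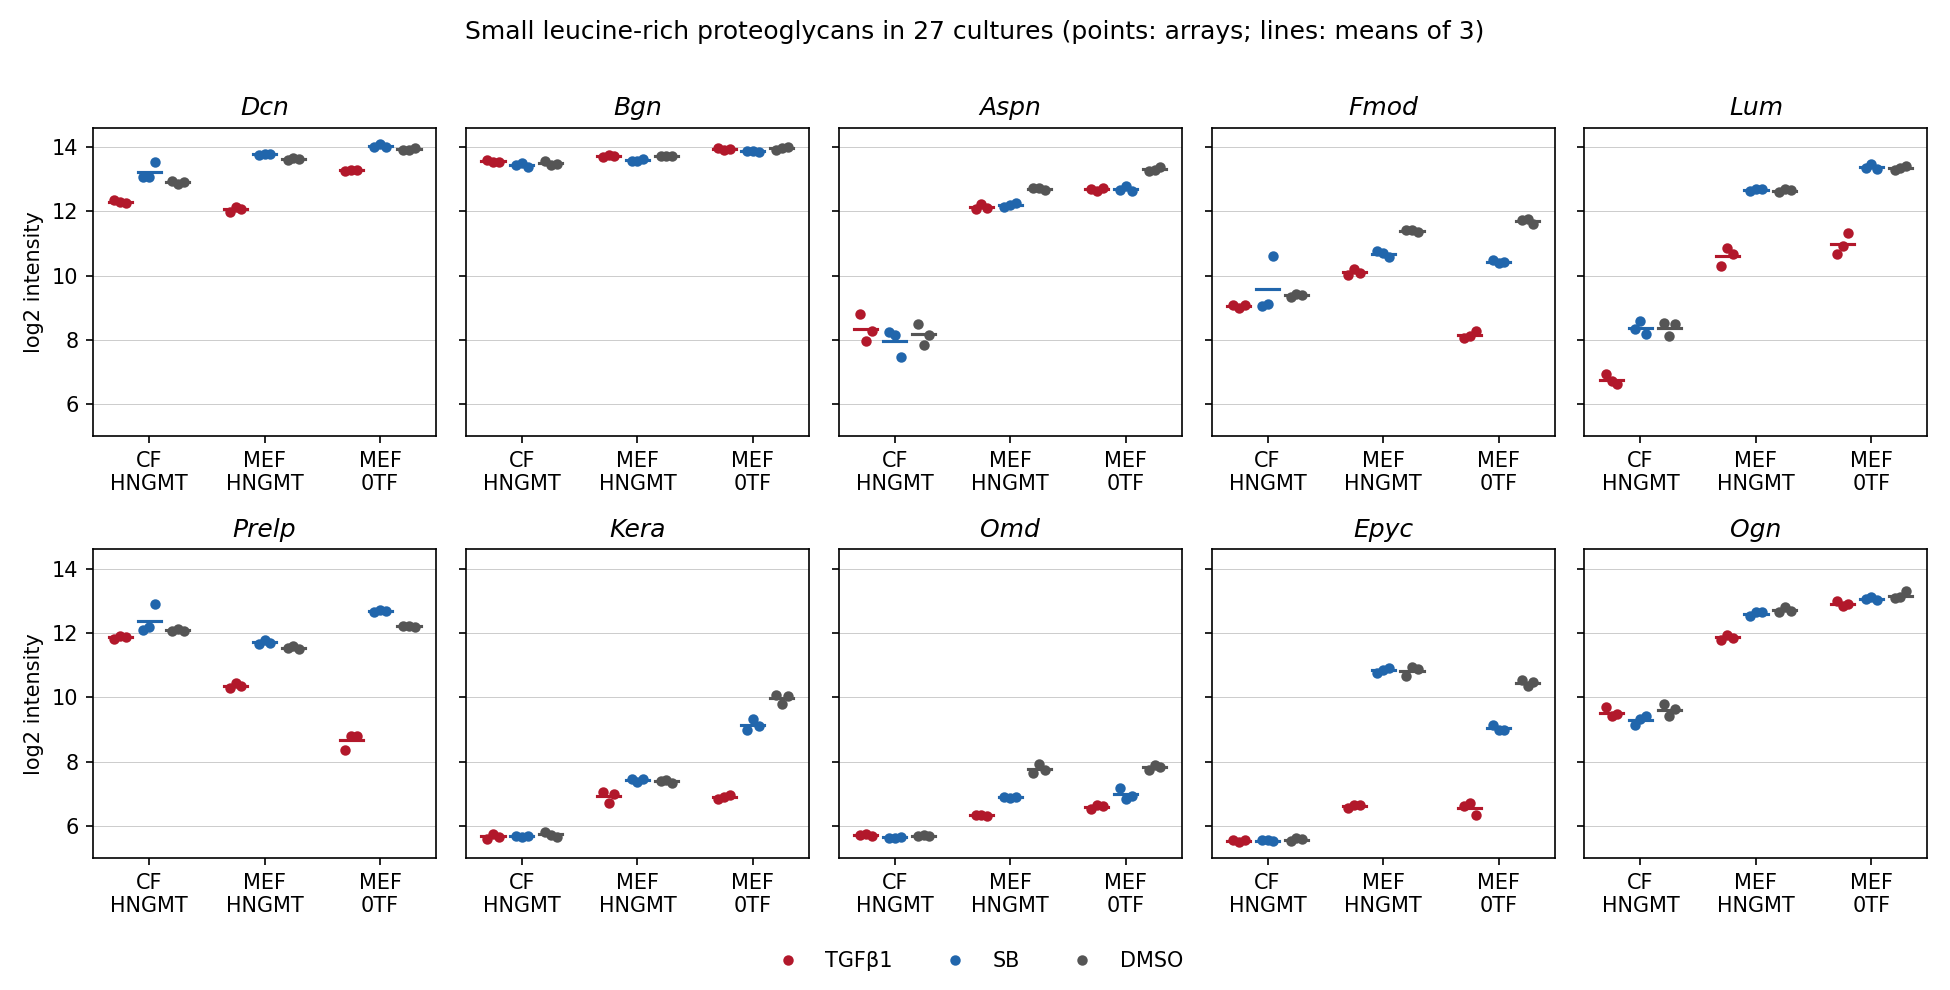
Log2 intensity (vertical axis) of each member in all 27 cultures, in panels by gene, with TGFβ1, SB and DMSO from left to right within HNGMT CFs, HNGMT MEFs and 0TF MEFs. Points are arrays and lines are means of 3, and the TGFβ1 cultures of MEFs sit below the DMSO cultures for every member but Bgn.

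Epyc, a class III member that binds collagen in growth cartilage, read 6.56, 6.65 and 6.64 in TGFβ1-treated HNGMT MEFs, against 10.67, 10.95 and 10.87 under DMSO. In 0TF MEFs it read 6.61, 6.70 and 6.36 with TGFβ1 and 10.54, 10.35 and 10.48 with DMSO. All 6 TGFβ1 cultures thus lay between the 16.9th and the 24.3rd percentile of the array, far below every DMSO culture and near the dim end, so the folds that follow are best read as lower bounds. Epyc fell by 4.21 (SE 0.08, 18.5-fold, adjusted p = 5.58e-16) in HNGMT MEFs and fell by 3.90 (SE 0.08, 14.9-fold, adjusted p = 1.45e-16) in 0TF MEFs.

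Fmod, which binds type I collagen and TGFβ, read 10.03, 10.19 and 10.09 with TGFβ1 in HNGMT MEFs, and 11.41, 11.41 and 11.37 with DMSO. In 0TF MEFs the values were 8.06, 8.12 and 8.29 with TGFβ1 and 11.73, 11.75 and 11.59 with DMSO. The groups did not overlap, and the 0TF cultures with TGFβ1 were the lowest of all 18 MEF cultures. Fmod fell by 1.29 (SE 0.06, 2.45-fold, adjusted p = 2.71e-11) in HNGMT MEFs and by 3.53 (SE 0.06, 11.5-fold, adjusted p = 1.47e-17) in 0TF MEFs. Its neighbour Prelp had the same order of the TGFβ1 and DMSO groups, though not of the SB groups. TGFβ1 gave 10.28, 10.45 and 10.35 in HNGMT MEFs, against 11.54, 11.58 and 11.51 with DMSO. In 0TF MEFs it gave 8.37, 8.80 and 8.80, against 12.23, 12.21 and 12.19 with DMSO. Prelp fell by 1.19 (SE 0.08, 2.28-fold, adjusted p = 3.51e-09) in HNGMT MEFs and fell by 3.55 (SE 0.08, 11.7-fold, adjusted p = 5.39e-16) in 0TF MEFs.

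Kera, a keratan sulfate proteoglycan of the corneal stroma, read 6.83, 6.90 and 6.98 in TGFβ1-treated 0TF MEFs, against 10.09, 9.80 and 10.04 with DMSO, a fall of 3.07 (SE 0.09, 8.39-fold, adjusted p = 1.29e-14). In HNGMT MEFs the gene was already dim, with 7.05, 6.73 and 6.99 under TGFβ1 and 7.39, 7.42 and 7.35 under DMSO, and its change of -0.46 (SE 0.09, adjusted p = 0.000524) stayed under the fold threshold. Lum, which regulates fibril spacing in cornea and skin, was at 10.29, 10.85 and 10.66 with TGFβ1 in HNGMT MEFs, against 12.59, 12.69 and 12.66 with DMSO. In 0TF MEFs Lum was at 10.68, 10.94 and 11.32 with TGFβ1 and at 13.28, 13.36 and 13.40 with DMSO. The TGFβ1 cultures of both kinds overlapped each other and lay below all DMSO cultures. Lum fell by 2.05 (SE 0.13, 4.13-fold, adjusted p = 8.59e-10) in HNGMT MEFs and by 2.36 (SE 0.13, 5.15-fold, adjusted p = 5.27e-11) in 0TF MEFs.

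Omd, a keratan sulfate proteoglycan made by bone cells, was dim in MEFs from the start. It read 6.35, 6.34 and 6.32 with TGFβ1 in HNGMT MEFs against 7.64, 7.91 and 7.74 with DMSO, and 6.54, 6.64 and 6.61 with TGFβ1 in 0TF MEFs against 7.73, 7.90 and 7.84 with DMSO. The groups were separate in both, with a fall of 1.43 (SE 0.07, adjusted p = 4.96e-11) in HNGMT MEFs and of 1.23 (SE 0.07, adjusted p = 1.41e-10) in 0TF MEFs. Every DMSO culture was at or under the 43.0th percentile of its array.

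In 0TF MEFs the class I genes and Ogn each moved less than Omd. Dcn, whose product binds collagen and TGFβ and is the best known brake of the family on TGFβ, read 11.99, 12.13 and 12.08 with TGFβ1 in HNGMT MEFs, against 13.60, 13.67 and 13.63 with DMSO. In 0TF MEFs it read 13.24, 13.29 and 13.29 with TGFβ1, against 13.92, 13.89 and 13.98 with DMSO. Here the HNGMT cultures with TGFβ1 were the lowest of all MEF cultures, the reverse of Fmod and Prelp. Dcn fell by 1.56 (SE 0.04, 2.95-fold, adjusted p = 2.61e-14) in HNGMT MEFs and by 0.66 (SE 0.04, 1.58-fold, adjusted p = 2.82e-10) in 0TF MEFs.

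Ogn, which takes part in collagen fibril assembly in skin, cornea and heart, was at 11.79, 11.95 and 11.85 with TGFβ1 in HNGMT MEFs, against 12.66, 12.79 and 12.68 with DMSO, a fall of 0.85 (SE 0.06, 1.80-fold, adjusted p = 3.81e-09). In 0TF MEFs it was at 12.99, 12.85 and 12.90 with TGFβ1, against 13.09, 13.11 and 13.29 with DMSO, and the change of -0.25 (SE 0.06) missed the fold threshold. Aspn, which binds TGFβ and is studied in osteoarthritis, read 12.08, 12.22 and 12.11 with TGFβ1 in HNGMT MEFs and 12.71, 12.73 and 12.67 with DMSO. It read 12.70, 12.63 and 12.72 with TGFβ1 in 0TF MEFs and 13.27, 13.28 and 13.38 with DMSO. Both sets of groups were separate, and the changes were near the threshold of 1.5-fold on either side of it: -0.56 (SE 0.05, 1.48-fold, adjusted p = 8.54e-08, not called) in HNGMT MEFs and -0.63 (SE 0.05, 1.55-fold, adjusted p = 9.94e-09, called) in 0TF MEFs. Leaving out TGFβ1 replicate 2 of the HNGMT MEFs brought the HNGMT change to -0.61 and past the threshold.

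Bgn, which like decorin carries chondroitin or dermatan sulfate chains and can signal through Toll-like receptors once released, was called in 0 of the 12 comparisons, and 5 of them had an unadjusted p under 0.05 by limma. It read 13.68, 13.74 and 13.71 with TGFβ1 in HNGMT MEFs against 13.72, 13.72 and 13.71 with DMSO, and 13.96, 13.90 and 13.94 with TGFβ1 in 0TF MEFs against 13.90, 13.97 and 14.01 with DMSO. The 95% interval of its TGFβ1 effect ran from -0.07 to 0.07 in HNGMT MEFs and from -0.09 to 0.05 in 0TF MEFs. These values lie close to the top of the array range, as given above.

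**Figure D3:**
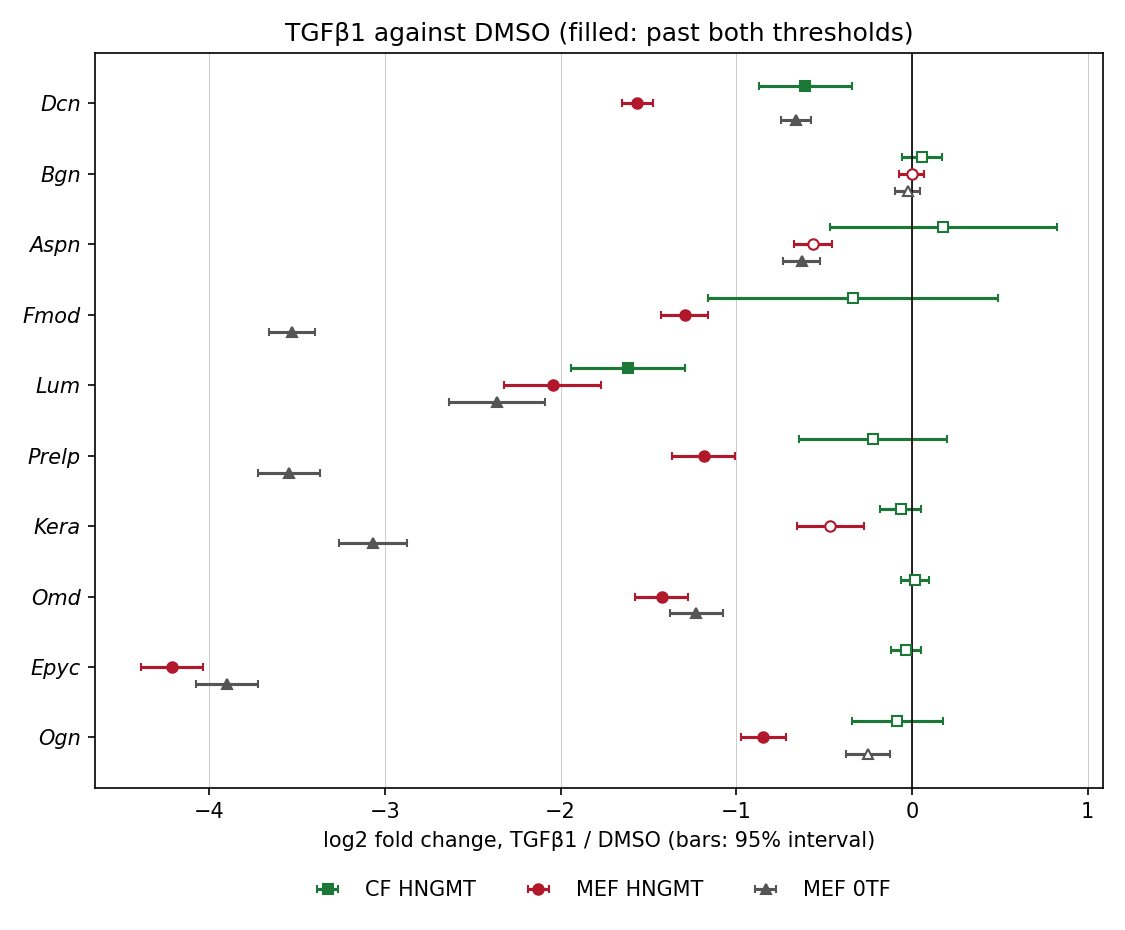
Log2 fold change of TGFβ1 over DMSO for each member (horizontal axis) in HNGMT CFs, HNGMT MEFs and 0TF MEFs, with 95% intervals of the fit and filled symbols for changes past both thresholds. Fmod, Prelp and Kera lie far apart between HNGMT and 0TF MEFs, Epyc and Lum lie close together, and the CF values of most members sit near 0.

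The size of the TGFβ1 effect itself differed between HNGMT and 0TF MEFs for 5 members, by a test of the difference of the effects. Of all genes 4.68% passed that test with a positive difference and 2.77% with a negative one. For 3 members the HNGMT effect was the smaller fall: Kera (difference 2.61, SE 0.13, adjusted p = 6.84e-11), Prelp (2.36, SE 0.12, adjusted p = 7.75e-11) and Fmod (2.23, SE 0.09, adjusted p = 3.79e-12). For Dcn (-0.90, SE 0.06, adjusted p = 1.76e-09) and Ogn (-0.60, SE 0.08, adjusted p = 2.95e-05) the HNGMT effect was the larger fall. The Ogn difference is 1.51-fold and dropped under the fold threshold, at -0.57 to -0.55, without any 1 of 5 of the 12 cultures: 0TF DMSO replicate 1 or 2, 0TF TGFβ1 replicate 1, HNGMT DMSO replicate 2 or HNGMT TGFβ1 replicate 1. Kera was already at the 34.4th to 36.7th percentile in HNGMT MEFs under DMSO, which left less room for a fall. Dcn in 0TF MEFs was at the 99.92nd to 99.95th percentile with DMSO and the 99.19th to 99.30th with TGFβ1. At that bright end a change can go unseen, and the part of this in the Dcn difference was not tested. For the other 5 members the difference did not pass, with 95% intervals from -0.56 to -0.06 for Epyc, whose TGFβ1 values were near the dim end in both kinds of MEFs, -0.07 to 0.71 for Lum, -0.42 to 0.02 for Omd, -0.09 to 0.22 for Aspn and -0.08 to 0.12 for Bgn.

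In HNGMT CFs TGFβ1 lowered Lum and Dcn, 2 of the 10 members with 0 higher, at a fold of at least 1.25. Of all genes 2.2% were lower and 3.11% higher there, and the median change of the members was -0.07. Lum read 6.95, 6.72 and 6.63 with TGFβ1 and 8.52, 8.13 and 8.49 with DMSO, with no overlap, and fell by 1.62 (SE 0.14, 3.07-fold, adjusted p = 0.000464). Dcn read 12.35, 12.28 and 12.26 with TGFβ1 and 12.95, 12.85 and 12.90 with DMSO and fell by 0.61 (SE 0.11, 1.52-fold, adjusted p = 0.0169). The Dcn call was lost when DMSO replicate 1, DMSO replicate 3, TGFβ1 replicate 2 or TGFβ1 replicate 3 was left out (adjusted p from 0.0677 to 0.0755), and without SB replicate 3, which enters this fit through the shared spread, it was 2.37e-05. Fmod read 9.08, 8.99 and 9.10 with TGFβ1 and 9.34, 9.43 and 9.41 with DMSO. Its groups did not overlap, and the change of -0.33 had an adjusted p of 0.712 with SB replicate 3 in the fit and 0.00129 without it, an alternative chosen after the values had been seen.

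The remaining members did not change past the thresholds with TGFβ1 in CFs. Prelp read 11.81, 11.92 and 11.87 with TGFβ1 and 12.06, 12.14 and 12.08 with DMSO, a change of -0.22 with a 95% interval from -0.64 to 0.20. Its groups did not overlap. Its SE was 0.18 and its limma adjusted p 0.595 with SB replicate 3 in the fit, and 0.04 and 0.00732 without it. The change stayed under the fold threshold, and this alternative too was chosen after the values had been seen. Aspn read 8.81, 7.96 and 8.28 with TGFβ1 and 8.50, 7.85 and 8.17 with DMSO, and Ogn 9.69, 9.40 and 9.49 against 9.78, 9.42 and 9.62. Both overlapped between the groups. The change was 0.18 for Aspn (95% interval -0.47 to 0.82) and -0.08 for Ogn (-0.34 to 0.17). Bgn changed by 0.06 (95% interval -0.06 to 0.17). Epyc, Kera and Omd stayed between 5.52 and 5.81 in all TGFβ1 and DMSO cultures, at the dim end of the array, where a fall could not have been seen. Markers of other cell types moved in the same cultures. The mean over 10 endothelial markers, of which 1 was called lower, was 9.93 to 9.95 in TGFβ1-treated and 10.48 to 10.56 in DMSO-treated CFs. The mean over 7 smooth muscle and pericyte markers (2 called higher) was 11.02 to 11.03 with TGFβ1 and 10.26 to 10.31 with DMSO, that over 8 cardiomyocyte markers (2 lower) 9.36 to 9.44 and 9.92 to 9.94, and that over 8 cartilage, bone and tendon markers (2 higher) 7.74 to 7.78 and 7.21 to 7.34. Their part in the Lum and Dcn values was not tested.

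The TGFβ1 effect was less negative in HNGMT CFs than in HNGMT MEFs for 7 of the 10 members, by a test of the difference over all 27 arrays at a fold of at least 1.5. Of all genes 2.68% passed in that direction. Dcn fell in both, and its effect differed by 0.96 (SE 0.11, adjusted p = 1.42e-06). Prelp differed by 0.96 (SE 0.19, adjusted p = 0.000944) and Ogn by 0.76 (SE 0.12, adjusted p = 9.13e-05). The differences of Epyc (4.18, SE 0.11) and Omd (1.44, SE 0.09) set a fall in MEFs against a gene that was at the 11.3rd to 14.3rd percentile in CFs under DMSO. Fmod (0.96, SE 0.32, adjusted p = 0.0460) and Aspn (0.74, SE 0.25, adjusted p = 0.0480) were close to the threshold. The Fmod call was lost without any 1 of the 12 cultures compared (adjusted p from 0.0623 to 0.0855) and the Aspn call without any 1 of 10 of them, all but CF DMSO replicate 1 and CF TGFβ1 replicate 2 (0.0619 to 0.153), whereas without SB replicate 3 of the CFs, which is in neither group, the adjusted p was 9.02e-09 for Fmod and 0.00805 for Aspn. Lum, with falls of 1.62 in CFs and 2.05 in MEFs, did not differ past the thresholds (0.43, 95% interval 0.01 to 0.85, adjusted p = 0.181).

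SB, which blocks the receptor that TGFβ1 uses, did not raise any member past the thresholds in MEFs, and it lowered several. In HNGMT MEFs 2 of the 10 fell, where 0.431% of all genes were lower and 0.391% higher. In 0TF MEFs 5 fell, where 1.13% of all genes were lower and 1.26% higher. Fmod was at 10.75, 10.70 and 10.57 with SB in HNGMT MEFs, below the 11.37 to 11.41 with DMSO, and at 10.48, 10.38 and 10.42 with SB in 0TF MEFs, below the 11.59 to 11.75 with DMSO. It fell by 0.73 (SE 0.06, 1.65-fold, adjusted p = 4.42e-07) in HNGMT MEFs and by 1.26 (SE 0.06, 2.40-fold, adjusted p = 8.21e-11) in 0TF MEFs. Omd was at 6.91, 6.87 and 6.90 with SB in HNGMT MEFs and at 7.17, 6.85 and 6.94 with SB in 0TF MEFs, below all DMSO cultures (7.64 to 7.91), and fell by 0.87 (SE 0.07, adjusted p = 2.86e-07) in HNGMT MEFs and by 0.84 (SE 0.07, adjusted p = 1.15e-07) in 0TF MEFs. Thus Fmod and Omd were lower past the thresholds under SB and under TGFβ1 in both kinds of MEFs. Aspn was lower in each of these comparisons as well, but past the fold threshold only in 0TF MEFs. The TGFβ1 and SB comparisons share their DMSO cultures.

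In 0TF MEFs SB also lowered Epyc, Kera and Aspn. Epyc read 9.13, 9.0 and 8.98 with SB, against the 10.35 to 10.54 with DMSO, and fell by 1.42 (SE 0.08, 2.68-fold, adjusted p = 7.39e-10). Kera read 9.0, 9.34 and 9.10 with SB, against the 9.80 to 10.09 with DMSO, and fell by 0.83 (SE 0.09, 1.78-fold, adjusted p = 2.36e-06). Both groups were separate in both genes. Aspn read 12.68, 12.79 and 12.62 with SB, also apart from DMSO, and fell by 0.61 (SE 0.05, 1.53-fold, adjusted p = 7.21e-08), a change that went under 1.5-fold without DMSO replicate 3 (-0.58) or SB replicate 3 (-0.57). In HNGMT MEFs Aspn was at 12.15, 12.19 and 12.26 with SB, a change of -0.50 (SE 0.05, adjusted p = 2.98e-06) that was not called. Prelp went the other way, with 12.66, 12.71 and 12.69 under SB in 0TF MEFs, 0.48 above DMSO (SE 0.08, adjusted p = 0.000400) but under the fold threshold. In the same 0TF cultures 7 of 7 adipocyte markers measured were higher with SB, Adipoq at 10.64 (mean) against 6.57 with DMSO. The mean over 8 cartilage, bone and tendon markers was 8.26 to 8.30 with SB and 8.58 to 8.68 with DMSO in 0TF MEFs. In HNGMT MEFs it was 8.18 to 8.24 with SB and 8.46 to 8.52 with DMSO. The part of these markers in the members' values under SB was not tested.

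**Figure D4:**
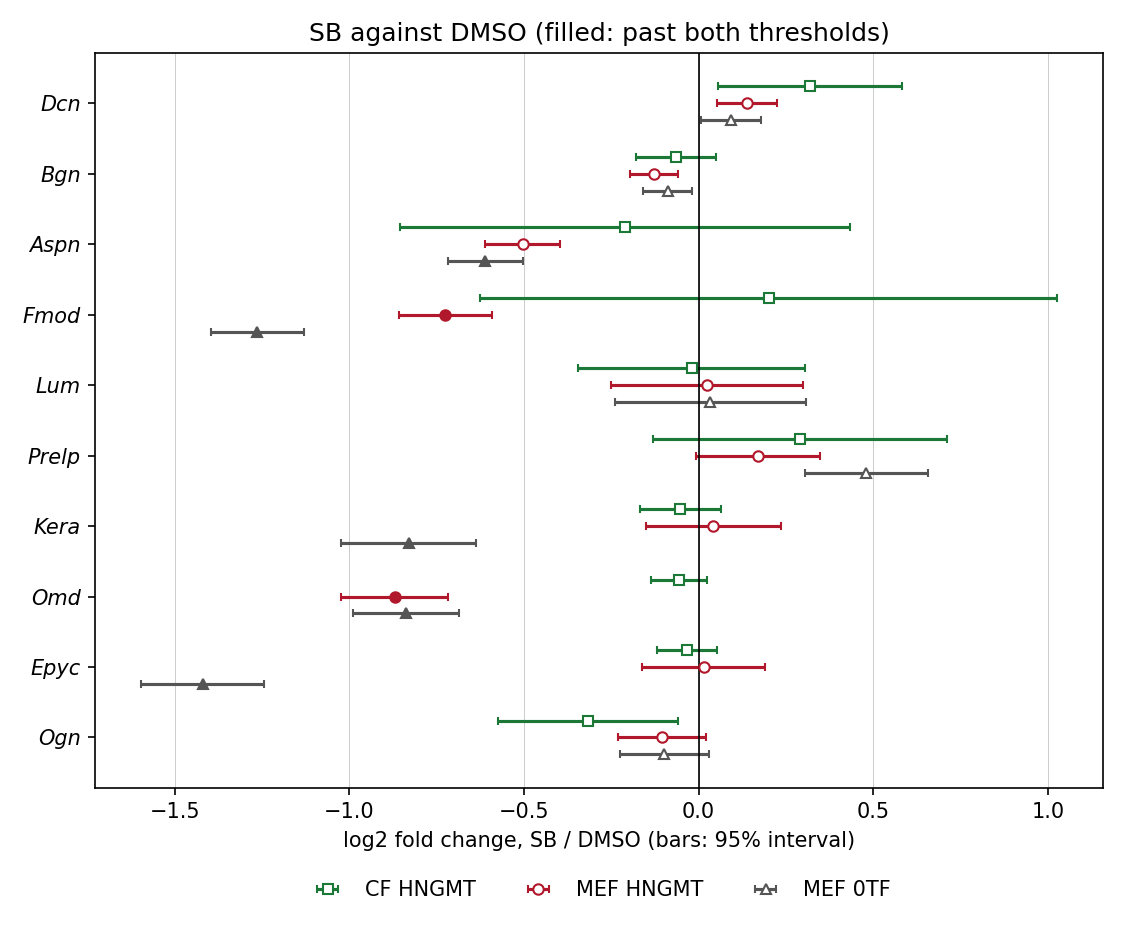
Log2 fold change of SB over DMSO for each member (horizontal axis) in HNGMT CFs, HNGMT MEFs and 0TF MEFs, with 95% intervals and filled symbols for changes past both thresholds. Past both thresholds, Fmod and Omd lie below 0 in both kinds of MEFs, and Epyc, Kera and Aspn only in 0TF MEFs. Aspn lies below 0 in HNGMT MEFs too, short of the fold threshold. The wide CF intervals of Fmod and Prelp go with SB replicate 3.

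A difference in the SB effect, HNGMT minus 0TF MEFs, passed for Epyc (difference 1.43, SE 0.12, adjusted p = 2.08e-07) and Kera (0.87, SE 0.13, adjusted p = 0.000177), 2 of the 10 members against 0.893% of all genes with a positive difference. Epyc in HNGMT MEFs read 10.76, 10.85 and 10.92 with SB, which overlapped the DMSO cultures (10.67 to 10.95). Kera in HNGMT MEFs read 7.46, 7.36 and 7.47 with SB and overlapped DMSO as well. For Fmod the difference of 0.54 (SE 0.09, adjusted p = 0.000491) was just under the fold threshold and went past it without 0TF DMSO replicate 3 (0.59) or HNGMT SB replicate 3 (0.59). Lum, at 12.62, 12.70 and 12.68 with SB in HNGMT MEFs and 13.36, 13.47 and 13.30 in 0TF MEFs, overlapped its DMSO cultures in both. Dcn read 13.74, 13.79 and 13.78 with SB in HNGMT MEFs and 13.99, 14.09 and 13.99 in 0TF MEFs, differences of 0.14 and 0.09 from DMSO.

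In HNGMT CFs SB, at a dose higher than in MEFs, changed 0 of the 10 members by limma's test, where 0.241% of all genes were called, and 2 members had an unadjusted p under 0.05 (Dcn and Ogn). With a weight for each array limma called 2, Fmod (-0.34) and Ogn (-0.45). Replicate 3 decided several of these values. Fmod read 9.04, 9.13 and 10.60 with SB, Prelp 12.09, 12.17 and 12.89, and Dcn 13.06, 13.07 and 13.52, with the third culture the high one each time, while Aspn read 8.24, 8.17 and 7.47 with the third culture low. The change of Fmod was 0.20 (SE 0.36) with the third culture and -0.30 (SE 0.05, adjusted p = 0.0208, under the fold threshold) without it. That of Dcn was 0.32 with it and 0.17 without it, and that of Prelp was 0.29 with it and 0.04 without it. Lum read 8.34, 8.58 and 8.17, Ogn 9.14, 9.33 and 9.40, and Bgn 13.43, 13.49 and 13.38 with SB. The doses of SB in CFs and MEFs differ, so the effects were not set against each other.

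The delivered factors alone also moved the family. Under DMSO 4 of the 10 members were lower and 0 higher in HNGMT than in 0TF MEFs, where 4.51% of all genes were lower and 4.56% higher. The largest change was in Kera, at 7.39, 7.42 and 7.35 in HNGMT MEFs against 10.09, 9.80 and 10.04 in 0TF MEFs, 2.59 lower (SE 0.09, 6.00-fold, adjusted p = 1.59e-13). Lum was 0.70 lower (SE 0.13, adjusted p = 0.000243), Prelp 0.66 lower (SE 0.08, adjusted p = 3.56e-06) and Aspn 0.60 lower (SE 0.05, adjusted p = 2.01e-08), each with separate groups. The Aspn change went to -0.57, under 1.5-fold, without 0TF DMSO replicate 3. Dcn (-0.30), Fmod (-0.29), Bgn (-0.24) and Ogn (-0.46) were lower and Epyc (0.37) higher by less than 1.5-fold, all with an adjusted p under 0.05, and Omd differed by -0.06 (adjusted p = 0.591). The mean over 10 fibroblast markers was 11.42 to 11.44 in HNGMT MEFs and 11.96 to 12.01 in 0TF MEFs under DMSO, and 7 of 8 cardiomyocyte markers were higher in HNGMT MEFs. Their part in these values was not tested.

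Under TGFβ1 the order of HNGMT and 0TF was turned for Fmod and Prelp. Of the 10 members 2 were higher and 2 lower in HNGMT MEFs, where 6.37% of all genes were higher and 3.88% lower. Fmod was 1.94 higher (SE 0.06, 3.84-fold, adjusted p = 3.34e-14) and Prelp 1.70 higher (SE 0.08, 3.25-fold, adjusted p = 1.04e-11), whereas Dcn was 1.20 lower (SE 0.04, 2.30-fold, adjusted p = 6.96e-14) and Ogn 1.05 lower (SE 0.06, 2.07-fold, adjusted p = 8.49e-11). The groups of each of these genes were separate. Under SB 1 member was higher and 3 were lower in HNGMT MEFs, where 5.04% of all genes were higher and 4.81% lower. Epyc was 1.81 higher (SE 0.08, 3.50-fold, adjusted p = 4.58e-12), Kera 1.71 lower (SE 0.09, adjusted p = 3.24e-11), Prelp 0.97 lower (SE 0.08, adjusted p = 2.46e-08) and Lum 0.71 lower (SE 0.13, adjusted p = 0.000195). Fmod was higher in HNGMT MEFs under SB as well, with separate groups. That change of 0.25 (SE 0.06, adjusted p = 0.00352 by limma) stayed under the fold threshold. The 3 comparisons of HNGMT with 0TF share no cultures with each other.

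**Figure D5:**
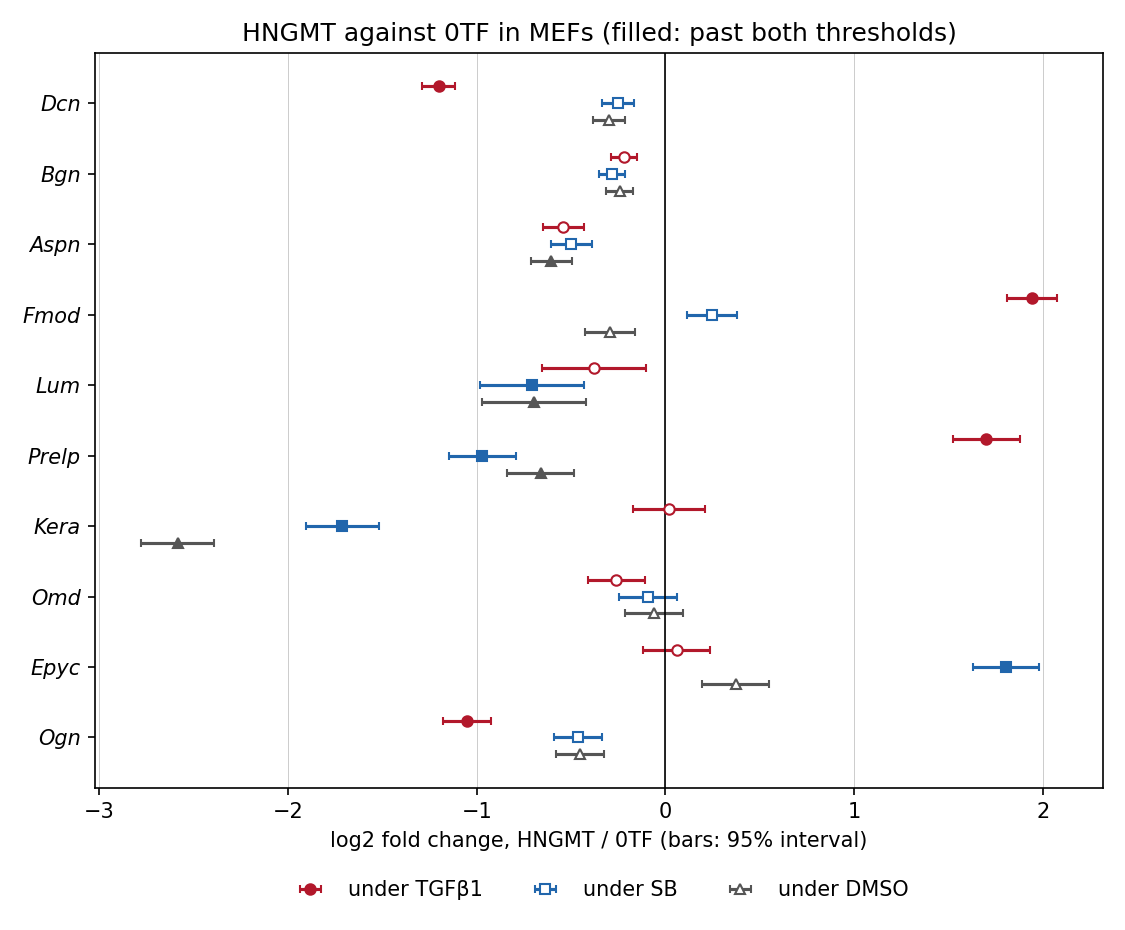
Log2 fold change of HNGMT over 0TF MEFs for each member (horizontal axis) under TGFβ1, SB and DMSO, with 95% intervals and filled symbols for changes past both thresholds. Past both thresholds, Fmod and Prelp stand above 0 under TGFβ1, Epyc under SB, and Kera lies below 0 under SB and DMSO. Fmod lies above 0 under SB too, short of the fold threshold.

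Ranked by mean over the 6 MEF groups, neighbouring groups did not overlap in any array for Dcn, Fmod and Prelp. The share of all genes that separate in this way was not counted, so the separation is not read as a trait of these members. For Dcn, all SB and DMSO groups were above both TGFβ1 groups. For Lum the SB and DMSO groups overlapped within HNGMT MEFs and within 0TF MEFs, and the TGFβ1 groups overlapped each other. The means of the MEF groups spanned 4.29 for Epyc, 4.03 for Prelp, 3.53 for Fmod, 3.07 for Kera, 2.78 for Lum, 1.95 for Dcn, 1.49 for Omd, 1.30 for Ogn, 1.17 for Aspn and 0.37 for Bgn.

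The genes most like each member over the 27 arrays, after the mean of each cell type was taken off, were found by Pearson correlation as a description of arrays that share their treatments. Fmod went with Plekhh2 (r = 0.99), Hapln1 (0.95), a link protein of the hyaluronan matrix, and Gabrb2 (0.93). Prelp went with Npnt (0.98), the integrin ligand nephronectin, Igfbp4 (0.98) and Rassf2 (0.98). Kera went with Lama3 (0.98), a laminin chain, Slc27a6 (0.98) and Cdh8 (0.98), and Epyc with Sostdc1 (0.95), a secreted antagonist of BMP and Wnt signals, Arc (0.95) and Slc14a1 (0.94). Lum went with Slc43a3 (0.97), Cdkn2c (0.97) and Slfn9 (0.97), Dcn with Cped1 (0.96), Nrp2 (0.96) and Exosc10 (0.95), and Ogn with Sema3a (0.93), Mir100hg (0.93) and Cdh11 (0.93). Aspn went with Gmds (0.88), Tram1 (0.88) and Cdc16 (0.88) and Omd with Atp10a (0.95), Tnfaip8l3 (0.95) and Chrd (0.92), the BMP antagonist chordin. Among the members themselves the highest correlation was between the chromosome 10 neighbours Dcn and Lum (0.88), followed by the chromosome 1 neighbours Fmod and Prelp (0.84). Other neighbours correlated less: Lum and Kera at 0.71, Aspn and Omd at 0.62, Omd and Ogn at 0.57, and Kera and Epyc at 0.46. Pairs that are not neighbours reached 0.81 (Lum and Prelp) and 0.79 (Epyc and Omd).

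The surroundings of the family were read from lists of related genes, at the same thresholds. The background for their counts with TGFβ1 is 3.11% of all genes higher and 2.2% lower in HNGMT CFs, 2.23% higher and 3.54% lower in HNGMT MEFs, and 4.21% higher and 6.19% lower in 0TF MEFs, and the lower fold threshold in CFs means that CF and MEF counts do not compare. Among 7 relatives with leucine-rich repeats, TGFβ1 lowered Podn (podocan) by 0.91 and Ecm2 by 0.67 in HNGMT MEFs and by 1.40 and 2.69 in 0TF MEFs. Ecm2, next to Aspn on chromosome 13, read 6.76, 6.54 and 6.76 with TGFβ1 in 0TF MEFs and 9.34, 9.36 and 9.42 with DMSO. In CFs Podn fell by 0.98 and Chad (chondroadherin, of cartilage) rose by 0.62. Of 13 collagens of the fibrils that these proteoglycans bind, TGFβ1 raised 5 and lowered 0 in HNGMT CFs. It raised 0 and lowered 5 in HNGMT MEFs and raised 0 and lowered 6 in 0TF MEFs. Col14a1, a collagen that sits on fibril surfaces, fell by 1.86 in HNGMT MEFs and by 2.89 in 0TF MEFs, and Col6a3 fell by 0.67 in HNGMT MEFs and by 1.80 in 0TF MEFs. In CFs Col11a1 rose by 1.31, Col12a1 by 0.80 and Col3a1 by 0.74. Col3a1 thus rose in CFs where it fell in HNGMT MEFs (by 0.97), and the effects differed by 1.72 between the cell types (adjusted p = 7.94e-12).

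Of 29 enzymes that build the glycosaminoglycan chains, TGFβ1 raised 6 in HNGMT CFs, raised 1 and lowered 1 in HNGMT MEFs, and raised 4 and lowered 2 in 0TF MEFs. The counts in HNGMT MEFs are near the background. The chondroitin 4-O-sulfotransferase Chst11 rose in all 3, by 0.78 in HNGMT CFs, 1.19 in HNGMT MEFs and 2.12 in 0TF MEFs. Of 9 proteases that cut members of the family, TGFβ1 raised the collagenase Mmp13 by 2.64 in HNGMT MEFs and 3.99 in 0TF MEFs, and Mmp9 by 2.20 in HNGMT CFs, 1.67 in HNGMT MEFs and 0.68 in 0TF MEFs. Mmp3 rose by 2.72 in 0TF MEFs. Of 16 ligands and receptors, the TGFβ co-receptor Tgfbr3 fell in all 3, by 1.62 in HNGMT CFs, 1.27 in HNGMT MEFs and 0.94 in 0TF MEFs. Of 19 other proteoglycans, TGFβ1 raised 2 and lowered 2 in HNGMT MEFs and raised 2 and lowered 5 in 0TF MEFs: Prg4, the joint lubricant lubricin, rose by 1.60 in HNGMT MEFs and 2.38 in 0TF MEFs, and the glypican Gpc3 fell by 0.64 in HNGMT MEFs and 2.61 in 0TF MEFs. The median change of each of these lists with TGFβ1 lay between -0.27 and 0.06 in 0TF MEFs apart from the proteases (0.16), against -1.79 for the 10 members. The mean over the 7 relatives was nonetheless 8.39 to 8.43 with TGFβ1 there and 8.92 to 8.96 with DMSO. Over the 13 collagens it was 11.33 to 11.36 and 11.92 to 11.98. The means of the enzymes and of the proteases were higher with TGFβ1. Members and lists were chosen with earlier results of these data known, so the contrast is only a description.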

How the data were processed

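Total RNA of 27 cultures was measured on 1 array each. The authors deposited log2 intensities for 35556 probe sets, and their labels name MAS5, with no version or normalization setting given in the sources used here. The values (4.22 to 14.64) were used as deposited. Of the probe sets, 21789 had 1 gene symbol (1621 had several, 12146 none), symbols were updated through Entrez IDs, and the brightest probe set of a gene was kept.

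Group means were compared with limma 3.58.1 (lmFit and eBayes, R 4.3.3) in 12 contrasts, in fits of 18 MEF arrays (12 residual degrees of freedom), 9 CF arrays (6) or all 27 (18), with Benjamini-Hochberg adjustment over 19938 genes. Calls needed an adjusted p under 0.05 and a fold of at least 1.5, or 1.25 within CFs, as in the study's methods. The thresholds differ, so counts do not compare the cell types. The fit was also run on simulated data with normal spread, no outlying array and no dim or bright limit. That run does not bear on calls that depend on these. The number of arrays limits the precision.

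The members and the gene lists were chosen with earlier results of these data known. Named were all members, up to 4 called genes per list and contrast with the largest fold, and the 3 genes most like each called member. Replicate numbers were not taken as pairs. The deviations of same-numbered arrays correlated at -0.45 to 0.59 for MEFs and -0.25 to 0.65 for CFs. Their median was -0.02 in MEFs and 0.09 in CFs, against 0.01 and -0.07 for arrays of different numbers. These values do not settle whether same-numbered cultures were paired, and a replicate block was among the alternatives. Alternatives left out each culture, dropped dim genes or the fold threshold, limited the fit to the arrays compared, added a replicate block, a variance trend or array weights, averaged probe sets, or used quantile normalization. Figures were drawn with matplotlib 3.10.9 in Python 3.11.15.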

Additional observations from a re-analysis of the deposited data

Results flagged for a closer look

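The effect of a treatment differed between groups of cultures, by limma's test of the difference, for the following members. The TGFβ1 effect in HNGMT MEFs minus that in 0TF MEFs was 2.61 for Kera, 2.36 for Prelp, 2.23 for Fmod, -0.90 for Dcn and -0.60 for Ogn. The SB effect in HNGMT MEFs minus that in 0TF MEFs was 1.43 for Epyc and 0.87 for Kera. The TGFβ1 effect in HNGMT CFs minus that in HNGMT MEFs was 4.18 for Epyc, 1.44 for Omd, 0.96 for each of Dcn, Fmod and Prelp, 0.76 for Ogn and 0.74 for Aspn. Kera was already dim under DMSO in HNGMT MEFs, and Epyc and Omd lay at the dim end of the CF arrays, which left less room for a fall. Dcn lay near the bright end in 0TF MEFs, where a change can go unseen. Between cell types, the Fmod call was lost without any 1 of the 12 cultures compared and the Aspn call without any 1 of 10. The Ogn difference of -0.60 dropped under the fold threshold without any 1 of 5 of 12 cultures.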

How the results depend on the processing

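The number of members called kept within 1.5 times its main value in all 12 comparisons when the fit was limited to the arrays compared, given a variance trend, run on means of probe sets or run after quantile normalization. With a replicate block the count went from 7 to 6 for the TGFβ1 effect in HNGMT CFs minus HNGMT MEFs (Fmod, adjusted p = 0.0503), and no other call changed under the block. Of the arrays, 5 of 9 in CFs and 7 of 18 in MEFs correlated best with their own replicate number. With array weights the SB count in HNGMT CFs was 2 in place of 0, and the Fmod change was -0.34 (adjusted p = 0.00562) in place of 0.20. Leaving out dim genes, which drops Omd, gave 1 in place of 2 for SB in HNGMT MEFs. With no fold threshold the counts were 5 for SB in HNGMT MEFs, and 8 under TGFβ1, 9 under SB and 9 under DMSO for HNGMT against 0TF. Leaving out each culture in turn gave 7 to 8 members called for TGFβ1 in HNGMT MEFs and 8 to 8 in 0TF MEFs, 1 to 3 for TGFβ1 in HNGMT CFs, 2 to 2 for SB in HNGMT MEFs, 4 to 5 in 0TF MEFs and 0 to 0 in HNGMT CFs, 4 to 4 under TGFβ1, 4 to 4 under SB and 3 to 4 under DMSO for HNGMT against 0TF, 4 to 5 for the difference of TGFβ1 effects and 2 to 3 for that of SB effects between HNGMT and 0TF MEFs, and 5 to 7 between CFs and MEFs. Leaving out SB replicate 3 of the CFs in the TGFβ1 comparisons was chosen after seeing the data. Only that choice gave the 3 for TGFβ1 in HNGMT CFs and the 7 between CFs and MEFs. Of the single members' values under all these settings, 1749 kept their sign and call, 38 lost the call, 32 gained it and 1, Fmod above, was called with the opposite sign. A further 43 values of 20 results that were called neither way changed sign, all with a main value of at most 0.21 in size, among them Fmod (-0.30), Lum (0.08) and Aspn (0.03) for SB in CFs without SB replicate 3. Changes at the dim and the bright end of the arrays may go unseen.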

Other observations

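With SB, 7 of 7 adipocyte markers rose in 0TF MEFs and 2 of 7 in HNGMT MEFs. Over all genes SB raised 1.26% and lowered 1.13% in 0TF MEFs, and raised 0.391% and lowered 0.431% in HNGMT MEFs. Adipoq, the hormone adiponectin, rose by 4.07 (log2) in 0TF MEFs (adjusted p = 2.98e-18 by limma) and differed by 0.15 in HNGMT MEFs (adjusted p = 0.142). Of 8 cardiomyocyte markers, 5 rose with SB in HNGMT MEFs, and 0 rose and 1 fell in 0TF MEFs. Tnnt2, cardiac troponin T, was higher in HNGMT than in 0TF MEFs by 5.38 under TGFβ1, 5.55 under SB and 4.61 under DMSO.

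Among 13 fibril collagens 1 was higher and 8 were lower in HNGMT than in 0TF MEFs under SB, 3 were higher and 3 lower under TGFβ1, and 0 were higher and 2 lower under DMSO. Over all genes 5.04% were higher and 4.81% lower under SB, 6.37% and 3.88% under TGFβ1, and 4.56% and 4.51% under DMSO. Versican (Vcan), a large proteoglycan of loose matrix, was lower in HNGMT MEFs in all 3, with log2 differences of -1.57 under TGFβ1, -1.71 under SB and -1.53 under DMSO. Ecm2, next to Aspn on chromosome 13, differed by 0.13 under TGFβ1 (adjusted p = 0.206), -1.68 under SB and -1.89 under DMSO. Gpc3, a glypican, was higher in HNGMT MEFs by 3.01 under TGFβ1 and 1.04 under DMSO. Prg4 fell with SB in HNGMT MEFs by 1.57 (adjusted p = 4.76e-09) and changed by -0.41 in 0TF MEFs, under the fold threshold.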
